A study of Homo sapiens with 6 samples.

Results

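Hypoxia response and glycolysis genes were examined in SUM159 cells grown for 6 days in three-dimensional matrigel culture, with and without knockdown of TβRIII, the type III TGF-β receptor encoded by TGFBR3. The set was given as 37 symbols, namely 16 glycolytic enzymes and 21 other hypoxia targets. A member was taken from rows of the expression table that carry its symbol alone, and 34 members, 15 enzymes and 19 other targets, were found among 18276 genes measured. PGAM1 shares all its rows with PGAM4, and SLC16A3 and CA9 are not analysed here. SUM159 is an established human line of triple negative breast cancer, used in the study as a model of its mesenchymal-stem like subtype. The 3 control arrays and the 3 TβRIII-KD arrays (TGFBR3KD in the sample labels) differ by a stably expressed short hairpin RNA against TGFBR3, delivered by lentivirus and followed by puromycin selection. The study used 1 such hairpin for this work, both groups grew in the same kind of matrigel, and the labels say of the control cells only that they are controls. For its immunoblots the paper describes SUM159 controls as stably expressing a control vector. It does not say so for these arrays. Nothing in the labels says whether arrays of a group came from separate cultures, so the p-values reflect only how these samples vary, and that variation may be technical. In bulk RNA, a lower signal from fewer cells of a type and one from less RNA per cell cannot be told apart.

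Cells adapt to low oxygen mainly through the hypoxia-inducible factors (HIFs). Their α subunits, encoded by HIF1A and EPAS1, are hydroxylated on prolines by the EGLN enzymes when oxygen is present, and the hydroxylated protein is bound by VHL and degraded. In low oxygen the α subunits accumulate, pair with ARNT and bind short DNA elements with the core ACGTG or GCGTG near genes for glucose uptake, glycolysis, pH control, blood vessel growth and mitochondrial turnover. HIF activity is set largely at the protein level, which arrays do not measure. Many carcinoma lines also run glycolysis at a high rate in the presence of oxygen.

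Promoter windows are shown for 2 members that were lower in TβRIII-KD (HK2 and EGLN3) and for 2 textbook HIF targets that did not pass the test (PGK1 and LDHA), so that the letters of the HIF core can be set beside their values. Each line gives the 250 bases before the most upstream start site that RefSeq lists for the gene in GRCh38.p14, read 5′ to 3′ on the strand of the gene. Capitals mark ACGTG or GCGTG, or their reverse complements CACGT and CACGC. Where CACGTG is in capitals, the core matches on both strands and overlaps the E-box motif.
HK2: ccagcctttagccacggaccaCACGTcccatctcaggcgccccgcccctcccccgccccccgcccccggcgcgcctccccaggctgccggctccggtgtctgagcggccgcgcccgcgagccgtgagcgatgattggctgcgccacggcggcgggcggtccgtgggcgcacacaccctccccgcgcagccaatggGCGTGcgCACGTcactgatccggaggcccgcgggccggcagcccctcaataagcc
EGLN3: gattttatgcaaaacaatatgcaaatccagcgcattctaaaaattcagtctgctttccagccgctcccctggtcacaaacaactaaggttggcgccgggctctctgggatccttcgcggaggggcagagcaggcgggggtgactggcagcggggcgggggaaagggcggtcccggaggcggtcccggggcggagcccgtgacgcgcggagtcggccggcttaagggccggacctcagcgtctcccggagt
PGK1: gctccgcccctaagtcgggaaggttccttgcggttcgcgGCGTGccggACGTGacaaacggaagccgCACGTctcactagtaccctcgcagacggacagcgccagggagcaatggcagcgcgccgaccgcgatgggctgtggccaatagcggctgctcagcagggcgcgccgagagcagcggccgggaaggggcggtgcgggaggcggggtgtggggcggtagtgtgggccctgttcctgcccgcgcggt
LDHA: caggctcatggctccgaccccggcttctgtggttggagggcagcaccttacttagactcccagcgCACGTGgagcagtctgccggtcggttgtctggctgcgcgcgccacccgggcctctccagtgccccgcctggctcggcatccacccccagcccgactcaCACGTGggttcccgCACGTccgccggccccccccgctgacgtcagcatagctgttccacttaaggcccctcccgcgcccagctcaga
The HK2 window (chr2:74833877-74834126, plus strand) holds ACGTG 2 times and GCGTG 1 time, counting both strands. The EGLN3 window (chr14:33951075-33951324, minus strand) holds neither. PGK1 (chrX:78103998-78104247, plus strand) holds ACGTG 2 times and GCGTG 1 time. LDHA (chr11:18394313-18394562, plus strand) matches ACGTG at 5 positions counted by strand. These matches are letters in a window and not measured binding sites. Of the 34 members measured, 31 have a promoter in the RefSeq table (SLC2A3, BNIP3L and NDRG1 do not), and 13 of these (41.9%) hold ACGTG in the same window, among them 8 of 15 glycolytic enzymes and 5 of 16 other targets. The share was 21.1% of 14160 measured genes and 18.6% of all 27305 genes with a promoter there. With GCGTG included, the share was 71.0% of the members and 51.1% of measured genes.

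The arrays were alike as a whole. Their median log2 signals lay between 7.67 and 7.71, and Pearson correlations over transcript clusters (no independent replicates) ran from 0.995 to 0.996 among controls, from 0.992 to 0.995 among TβRIII-KD arrays and from 0.986 to 0.992 across the groups. The first principal component (49.2% of the variance) separated the groups, with TβRIII-KD 2 farthest from the centre. The second (21.9%) set TβRIII-KD 3 apart. TGFBR3 itself was lower in TβRIII-KD, with log2 signals of 10.81, 10.89 and 10.56 on the control arrays and 9.72, 10.01 and 10.16 on the TβRIII-KD arrays (a log2 difference of -0.79 with SE 0.13, limma adjusted p = 0.0145). VIM, CD44 and FN1, which mark mesenchymal-like breast cancer lines, had log2 signals of at least 12.12 on every array. The breast receptor genes ESR1, PGR and ERBB2 had mean log2 signals of 6.33, 5.08 and 8.84 in controls. In TβRIII-KD their means were 6.37, 5.09 and 8.92. ERBB2 lay above the array medians. Of 9 measured markers of leukocytes, endothelium, adipocytes and erythroid cells, 0 passed the test in limma, against 3.48% of all genes. An unadjusted p under 0.05 was found for 0 in limma and 0 by the methods' t-test, against 15.6% and 13.8% of all genes. That t-test takes each gene's spread alone where limma pools spread over genes. Control means of the 9 markers ran from 4.25 (PTPRC) to 7.61 (PLIN1). The tests compare the groups and do not show whether such cells were present.

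In TβRIII-KD cultures 3 hypoxia and glycolysis genes were lower and 0 were higher than in controls. They were the glucose transporter gene SLC2A3, the hexokinase gene HK2 and the oxygen sensor gene EGLN3, each at 56.5% to 57.3% of its control signal. These are 3 of 34 members (1 of 15 glycolytic enzymes and 2 of 19 other targets) at an adjusted p under 0.05 from limma, where 3.48% of all measured genes passed in either direction, 2.22% lower and 1.26% higher. All 3 also passed a limit of 0.5 on the absolute log2 fold change, as 1.55% of all genes did in the lower and 0.772% in the higher direction. Most other members lay slightly below their control values without passing the test. Of the 34, 28 had a lower mean in TβRIII-KD (82.4%), against 45.5% of all genes, and the median log2 fold change was -0.16, against 0.01 over all genes. Among rows at or above the median signal these shares were 81.8% and 52.4%. The other targets had a median of -0.18 (17 of 19 lower means) and the enzymes one of -0.08 (11 of 15). All TβRIII-KD arrays lay below all control arrays in 10 members, against 11.0% of all genes, and above them in 2, against 10.2%. An unadjusted p under 0.05 was found for 10 members in the lower and 1 in the higher direction, where all genes gave 8.64% and 7.00%.
These counts rest in part on single arrays. Without TβRIII-KD 2, 0 members passed the test, 23 of 34 had a lower mean (67.6%), against 49.1% of all genes, and the median over the members was -0.07. The enzymes then had a median of 0.00 with 7 of 15 lower (46.7%), near the share of all genes, while the other targets kept a median of -0.15 with 16 of 19 lower. Without control 1, only EGLN3 passed. By the methods' t-test, 8 of 34 members had an unadjusted p under 0.05, against 13.8% of all genes, and 0 passed after adjustment, against 0.115% of all genes.

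**Figure D1:**
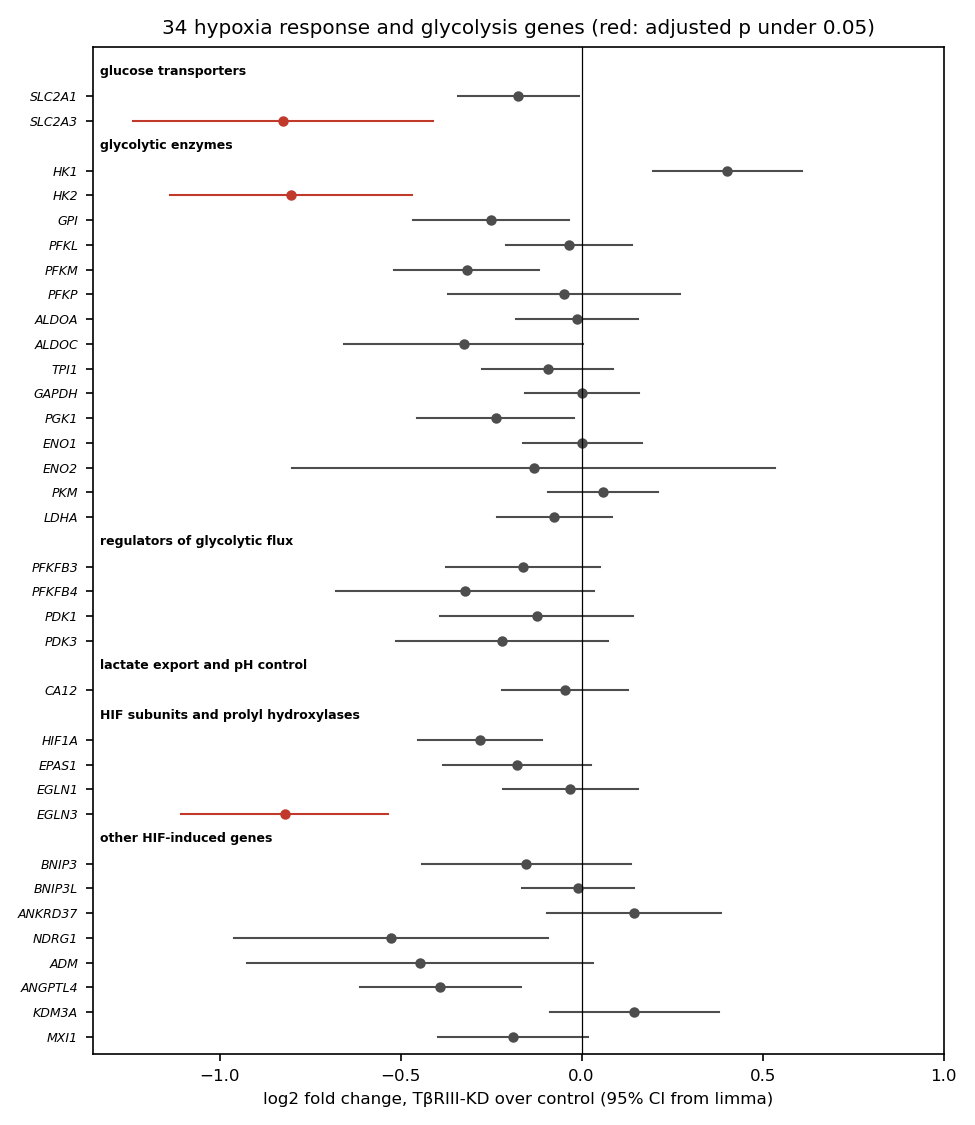
TβRIII-KD over control as log2 fold change for 34 hypoxia response and glycolysis genes grouped by role, each drawn as a dot on a line that spans the 95% confidence interval of limma (3 arrays in each group). The 3 genes in red, SLC2A3, HK2 and EGLN3, passed an adjusted p under 0.05 and lie near -0.8, while HK1 lies highest at 0.40.

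SLC2A3 encodes GLUT3, a glucose transporter of high affinity. Its log2 signals were 11.66, 11.32 and 11.20 on control arrays 1 to 3 and 10.96, 10.26 and 10.48 on TβRIII-KD arrays 1 to 3. Every TβRIII-KD array lay below every control array, and TβRIII-KD 1 lay nearest to the controls. On the log2 scale the gene fell by 0.82 (SE 0.18, limma adjusted p = 0.0490), which leaves 56.5% of the control signal. The call is at the edge of the threshold and was kept only when TβRIII-KD 1 was left out (adjusted p = 0.0160). It was lost without any other array (0.0824 to 0.179). SLC2A14, a neighbouring and nearly identical copy whose transcripts probes for SLC2A3 may also bind, gave a fold change of -0.66 on that scale (SE 0.15, adjusted p = 0.0592), and how far the 2 rows measure each other was not tested.
SLC2A1 encodes GLUT1, the widely expressed glucose transporter. Its log2 signals were 11.57, 11.54 and 11.60 in controls and 11.33, 11.36 and 11.49 in TβRIII-KD. The groups did not overlap, but the difference was small, at -0.17 on the log2 scale (SE 0.07, adjusted p = 0.311). The fold change of SLC2A3 lay 0.65 below that of SLC2A1, a contrast chosen after the values were seen and given without a test.

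Hexokinases trap glucose in the cell by phosphorylating it, and the 2 measured members had fold changes of opposite sign. HK2, the isoform that is inducible and often raised in tumours, had log2 signals of 10.71, 10.23 and 10.55 in controls and 9.73, 9.46 and 9.89 in TβRIII-KD. It fell by 0.80 (SE 0.15, adjusted p = 0.0229 from limma), to 57.3% of the control signal, and the groups did not overlap. Its adjusted p was 0.0975 without control 1, 0.0873 without control 3, 0.0604 without TβRIII-KD 1 and 0.0869 without TβRIII-KD 2. HK1, the isoform present in most tissues, had log2 signals of 9.21, 9.50 and 9.29 in controls and 9.78, 9.68 and 9.76 in TβRIII-KD. All TβRIII-KD arrays lay above all controls, with little spread among them (SD 0.05). Its log2 fold change of 0.40 (SE 0.09, adjusted p = 0.0512) lay just outside the threshold, and over the alternatives tried the adjusted p ranged from 0.0247 to 0.218. Relative to the control mean, the log2 signal of HK2 minus that of HK1 was -1.21, -1.39 and -1.02 on the TβRIII-KD arrays and 0.34, -0.43 and 0.10 on the control arrays. This contrast was chosen after the values were seen and is given without a test.

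**Figure D2:**
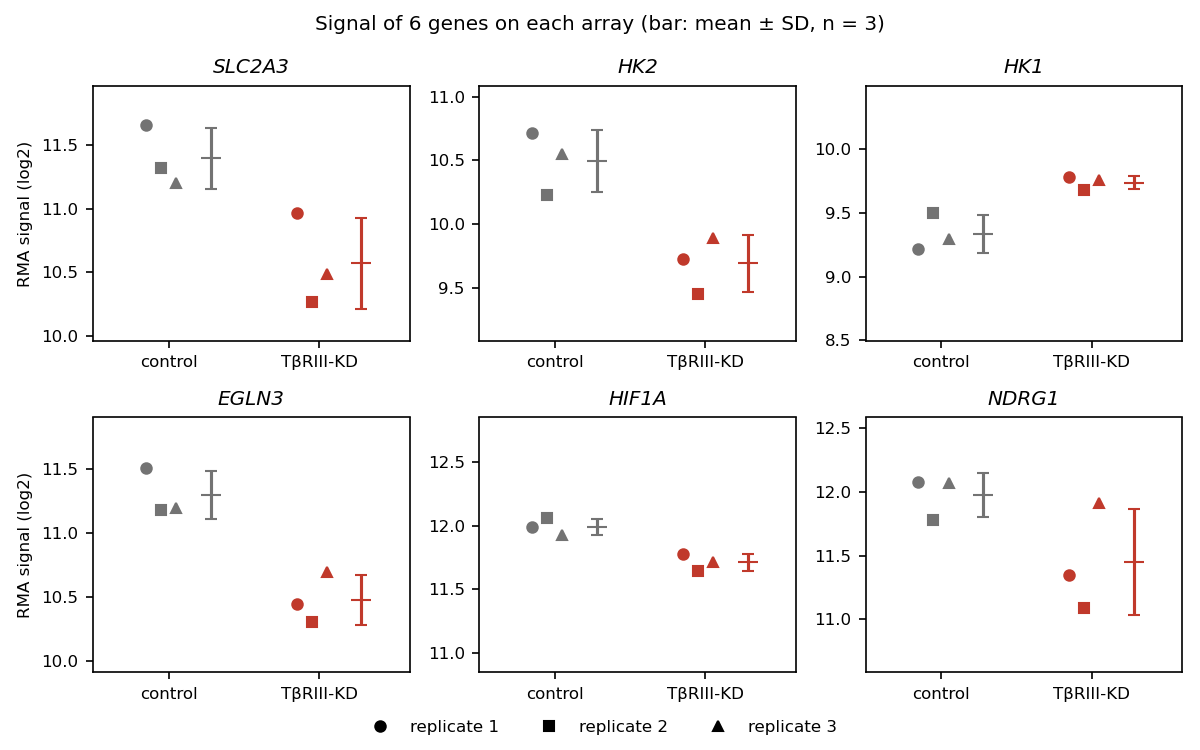
RMA signal (log2) of SLC2A3, HK2, HK1, EGLN3, HIF1A and NDRG1 on each array, with controls in grey, TβRIII-KD in red, a symbol for each replicate number and bars for the mean ± SD of each group. All panels span 2 log2 units. Of these genes, picked for display, only NDRG1 overlaps between the groups, with TβRIII-KD 3 (11.91) among the controls. They do not stand for the set, as 22 of the 34 members overlap between the groups. Over all genes 14392 of 18276 do.

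Of the 15 measured glycolytic enzymes, HK2 alone passed the test. An unadjusted p under 0.05 was found for 5 (HK2, HK1, PFKM, GPI and PGK1) in limma, against 15.6% of all genes, and for 3 of 15 by the methods' t-test, against 13.8%. Several other enzymes had fold changes close to 0. GAPDH, which oxidizes glyceraldehyde phosphate and served as the study's qPCR reference, had log2 signals of 13.97, 13.92 and 13.95 in controls and 13.94, 13.89 and 14.00 in TβRIII-KD (log2 fold change 0.00, 95% confidence interval -0.16 to 0.16). ENO1, the main enolase, had a fold change of 0.00 (-0.16 to 0.17) and ALDOA, the main aldolase, one of -0.01 (-0.18 to 0.16). LDHA, which turns pyruvate into lactate, had a fold change of -0.08 (-0.23 to 0.08), and PKM, the pyruvate kinase of most tissues, one of 0.06 (-0.09 to 0.21). For GAPDH, ENO1 and ALDOA the sign turned under other settings. GAPDH was -0.01 with array weights and -0.0004 with arrays centred on their medians, and ALDOA was 0.03 when quantile normalization was repeated.
A few enzymes had lower values that did not pass. PFKM, one of 3 phosphofructokinase genes that commit sugar to glycolysis, had log2 signals of 10.97, 10.96 and 10.81 in controls and 10.73, 10.50 and 10.56 in TβRIII-KD. The groups did not overlap, and the fold change was -0.32 (SE 0.09, adjusted p = 0.106), while PFKL and PFKP had fold changes of -0.03 and -0.05. PGK1, a phosphoglycerate kinase that yields ATP, had log2 signals of 12.73, 12.73 and 12.82 in controls and 12.58, 12.33 and 12.65 in TβRIII-KD (fold change -0.24, SE 0.095, adjusted p = 0.276). GPI, the phosphoglucose isomerase, was similar (fold change -0.25, SE 0.09, adjusted p = 0.243), and neither gene overlapped between the groups. ALDOC, the brain-type aldolase, had a fold change of -0.33 (SE 0.14, adjusted p = 0.337), with its lowest value, 9.97, on TβRIII-KD 2. Without that array, ALDOC was at -0.16 and PGK1 at -0.14. TPI1, the triosephosphate isomerase, had one of -0.09 (SE 0.08).
ENO2, the neuronal enolase, varied most within the groups. It had log2 signals of 10.06, 9.47 and 10.25 in controls and 9.83, 9.18 and 10.37 in TβRIII-KD. Its fold change of -0.13 has a 95% confidence interval from -0.80 to 0.53, so these arrays do not resolve its direction. On TβRIII-KD 3 it lay above every control. GAPDH, LDHA, PGK1 and ENO1 have processed pseudogenes, and what the probes take from such copies was not tested.

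The 4 measured regulators that steer sugar into or past glycolysis had fold changes between -0.32 and -0.12, and 0 passed the test in limma. An unadjusted p under 0.05 was found for 0 of them, in limma and by the methods' t-test, against 15.6% and 13.8% of all genes. PFKFB4 and PFKFB3 set the level of a fructose bisphosphate that activates phosphofructokinase and is not its product. PFKFB4 had log2 signals of 8.99, 8.68 and 8.76 in controls and 8.56, 8.14 and 8.76 in TβRIII-KD, with a fold change of -0.32 (SE 0.16, adjusted p = 0.380). TβRIII-KD 3 reached the control values and TβRIII-KD 2 lay lowest. PFKFB3 had a fold change of -0.16 (SE 0.09, adjusted p = 0.479). PDK1 and PDK3 are kinases that switch off pyruvate dehydrogenase and so limit the use of pyruvate in the citric acid cycle. They had fold changes of -0.12 (SE 0.12) and -0.22 (SE 0.13). Control and TβRIII-KD arrays overlapped in all 4. These values moved with single arrays. Without TβRIII-KD 2, PFKFB4 was at -0.15, PFKFB3 at -0.08 and PDK1 at -0.02, and without control 3, PDK3 was at -0.06. CA12, a membrane carbonic anhydrase that helps control pH, had a fold change of -0.05 (95% confidence interval -0.22 to 0.13).

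EGLN3, which encodes the prolyl hydroxylase PHD3 and is itself a HIF target, had the smallest adjusted p of the members. Its log2 signals were 11.51, 11.19 and 11.20 in controls and 10.44, 10.30 and 10.69 in TβRIII-KD. The highest TβRIII-KD array lay below the lowest control. On the log2 scale EGLN3 fell by 0.82 (SE 0.13, limma adjusted p = 0.0107), to 56.7% of the control signal. The adjusted p was 0.0521 without TβRIII-KD 2 and stayed under the threshold without any 1 of the other arrays. Of the 4 windows printed above, that of EGLN3 held neither ACGTG nor GCGTG.
EGLN1, which encodes PHD2, the main hydroxylase that destabilizes HIF in normal oxygen, had log2 signals of 9.35, 9.25 and 9.18 in controls and 9.30, 9.12 and 9.25 in TβRIII-KD. The groups overlapped, and the fold change was -0.03 (95% confidence interval -0.22 to 0.16). HIF1A had log2 signals of 11.99, 12.06 and 11.93 in controls and 11.78, 11.64 and 11.71 in TβRIII-KD. Arrays of each group lay close together and the groups did not overlap, with a fold change of -0.28 (SE 0.07, adjusted p = 0.0951) that did not pass the test. EPAS1, which encodes HIF-2α, had log2 signals of 9.62, 9.87 and 9.80 in controls and 9.65, 9.63 and 9.48 in TβRIII-KD. The groups overlapped, with a fold change of -0.18 (SE 0.09, adjusted p = 0.403).

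Of the 8 other HIF-induced genes, 0 passed the test in limma. An unadjusted p under 0.05 was found for 2 of the 8 in limma, against 15.6% of all genes, and for 1 by the methods' t-test, against 13.8%. The fold changes of the 8 genes ran from -0.53 for NDRG1 to 0.15 for KDM3A. NDRG1, a stress-responsive gene linked to differentiation and hypoxia, had log2 signals of 12.08, 11.78 and 12.07 in controls and 11.35, 11.09 and 11.91 in TβRIII-KD. Its fold change was -0.53 (SE 0.19, adjusted p = 0.221). Without TβRIII-KD 3, the array that overlapped the controls, it was -0.76 (adjusted p = 0.0137), and without TβRIII-KD 2, the lowest array, it was -0.35 (adjusted p = 0.498).
ADM, the vasodilator peptide adrenomedullin, had log2 signals of 10.24, 10.17 and 9.36 in controls and 9.60, 9.49 and 9.34 in TβRIII-KD, with a fold change of -0.45 (SE 0.21, adjusted p = 0.367). Control 3 lay with the TβRIII-KD arrays, and without it the fold change was -0.73 (adjusted p = 0.0163). Without control 1 it was -0.29 (adjusted p = 0.700) and without control 2 it was -0.32 (adjusted p = 0.646). ANGPTL4, a secreted inhibitor of lipoprotein lipase, had log2 signals of 8.16, 7.94 and 8.17 in controls and 7.74, 7.56 and 7.81 in TβRIII-KD. The groups did not overlap, and the fold change of -0.39 (SE 0.10, adjusted p = 0.0763) did not pass.
The mitophagy receptors BNIP3 and BNIP3L had fold changes of -0.15 (SE 0.13) and -0.01 (SE 0.07), with signs that held for BNIP3 and turned for BNIP3L when quantile normalization was repeated (0.05). MXI1, an antagonist of MYC, had a fold change of -0.19 (SE 0.09, adjusted p = 0.376) without overlap between the groups. KDM3A, a histone demethylase, and ANKRD37, an ankyrin repeat protein, had higher means in TβRIII-KD, at 0.15 (SE 0.10, adjusted p = 0.569) and 0.14 (SE 0.11, adjusted p = 0.584), and overlapped between the groups.

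The members also varied together from array to array within a group. TβRIII-KD 2 was the lowest TβRIII-KD array in 29 of 34 members, where it was lowest in 29.8% of all genes, and TβRIII-KD 3 was the highest in 22, where it was highest in 30.1% of all genes. The median member lay 0.32 below its control mean on TβRIII-KD 2, 0.11 below on TβRIII-KD 1 and 0.04 below on TβRIII-KD 3. Over all genes the medians were 0.031 above the control mean on TβRIII-KD 2, 0.0080 above on TβRIII-KD 1 and -0.0072 on TβRIII-KD 3. Among the controls, control 2 was lowest in 19 members (33.9% of all genes) and control 1 was highest in 17 (29.0% of all genes). The values are a description across genes that share the same arrays.

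**Figure D3:**
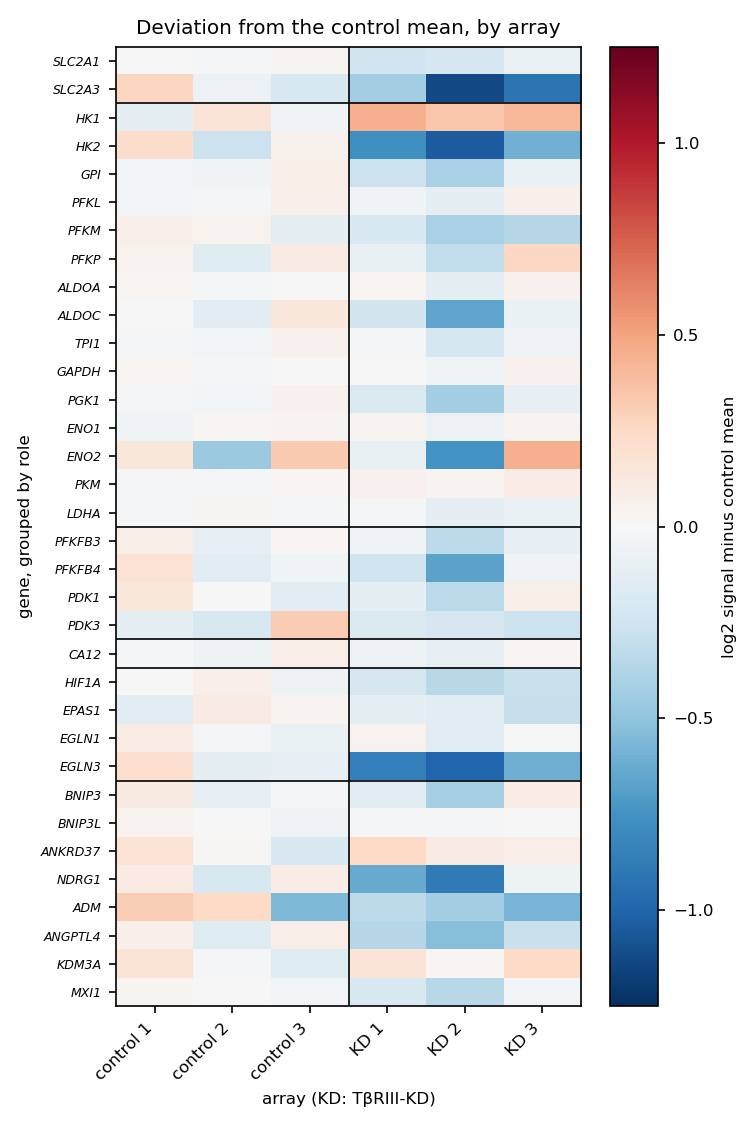
Log2 signal of each of 34 members minus its control mean, by array, with blue for lower and red for higher values and lines between the groups of genes. TβRIII-KD 2 (KD 2) is the bluest column, with SLC2A3, HK2 and EGLN3 lowest, and HK1 is red on all TβRIII-KD arrays.

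Other genes of the same pathways, 80 measured in 5 lists, were read in the same fit. Among 25 further hypoxia-induced genes, 0 passed the test in limma. An unadjusted p under 0.05 was found for 7 in limma, against 15.6% of all genes, and for 5 by the methods' t-test, against 13.8%. As in the members, most genes of this list had lower means in TβRIII-KD (21 of 25, against 45.5% of all genes). The median log2 fold change was -0.26. Without TβRIII-KD 2 it was -0.14, with 19 of 25 lower, against 49.1% of all genes. VEGFA, the main growth factor for blood vessels, had the smallest p of the list. Its log2 signals were 11.34, 10.88 and 11.20 in controls and 10.39, 9.94 and 10.65 in TβRIII-KD. The groups did not overlap, and the fold change was -0.81 (SE 0.18, adjusted p = 0.0533), outside the threshold. With 1 array left out the adjusted p ran from 0.0174 (without TβRIII-KD 3) to 0.205 (without control 1).
Of 11 HIF pathway components such as ARNT and VHL, 0 passed in limma. An unadjusted p under 0.05 was found for 0 in limma and 0 by the methods' t-test, against 15.6% and 13.8% of all genes. The components had a median of 0.06. Of the 11, 9 had higher means, and 18.2% had lower ones, against 45.5% of all genes. HIF1AN, an asparagine hydroxylase that blocks HIF activity, had the smallest p (fold change -0.24, SE 0.11, adjusted p = 0.351).
Of 19 further glycolytic isoforms and side enzymes, 0 passed in limma, and the median was -0.01. An unadjusted p under 0.05 was found for 4 in limma, against 15.6% of all genes, and for 3 by the methods' t-test, against 13.8%. PFKFB2, a heart-type relative of PFKFB3, had the smallest p (fold change -0.31, SE 0.09, adjusted p = 0.117). PDK4, a relative of PDK1 and PDK3 that was singled out after its values were seen, had the largest fold change of the list, 0.57 (SE 0.18, adjusted p = 0.167). Its TβRIII-KD arrays all lay above its controls. Of 6 pentose phosphate enzymes, 0 passed in limma. An unadjusted p under 0.05 was found for 1 in limma and 1 by the methods' t-test, against the same 15.6% and 13.8% of all genes. TKT, the transketolase, had a fold change of 0.23 (SE 0.08, adjusted p = 0.177).
Of 19 genes of pyruvate dehydrogenase and the citric acid cycle, 2 passed, both lower, where 2.22% of all genes passed in that direction. An unadjusted p under 0.05 was found for 5 in limma, against 15.6% of all genes, and for 4 by the methods' t-test, against 13.8%. The median over the list was -0.10. CS, which makes citrate at the entry of the cycle, had log2 signals of 11.31, 11.35 and 11.31 in controls and 10.87, 10.88 and 10.95 in TβRIII-KD. The groups were well apart, and CS fell by 0.42 (SE 0.07, adjusted p = 0.0135 from limma), with an adjusted p of 0.0510 to 0.0698 without TβRIII-KD 2 or any 1 control. SDHC encodes a membrane subunit of succinate dehydrogenase. Of its 2 rows, the one with the higher signal fell by 0.36 (SE 0.08, limma adjusted p = 0.0423), and that call was lost without any 1 array (0.0717 to 0.168). The other SDHC row had a fold change of -0.24 (SE 0.09, adjusted p = 0.217) and did not pass. The 2 rows had mean log2 signals of 11.48 and 8.79, and which of them measures SDHC itself was not tested. The call is therefore of 1 row and is not shown for the gene.

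**Figure D4:**
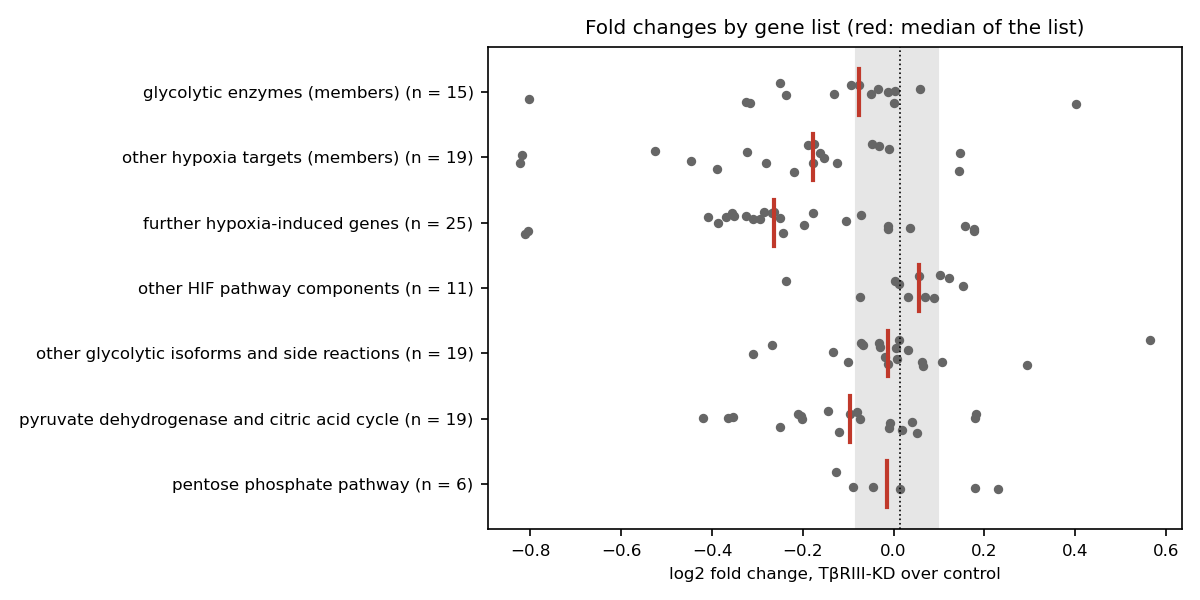
Genes of 7 lists by their log2 fold change (TβRIII-KD over control), with 1 dot per gene, a red line for the median of the list, a dotted line for the median of all genes and grey shading for their middle 50%. The medians are -0.18 for the other hypoxia targets, -0.26 for the further hypoxia-induced genes and -0.08 for the glycolytic enzymes, and the shading describes single genes, not medians of lists.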

How the data were processed

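RNA from SUM159 cells in matrigel culture (3 control and 3 TGFBR3KD samples) was hybridized to Affymetrix Human Gene 1.0 ST arrays, 1 per sample. The deposited values are log2 signals that the authors made by RMA, and the submitters' processing notes name R 3.0.1, oligo, RMA and limma. RMA's background correction and summary shrink differences of dim probes. The table of log2 values was used as deposited, with groups from the sample labels. Array signals have no read depth, and 3 arrays a group limit the precision.

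Of 22148 transcript clusters, 19129 carried 1 symbol in the platform annotation, 1735 several and 1284 none. Clusters with several or no symbol named no gene. A gene was represented by its row of highest mean signal. limma 3.58.1 in R 4.3.3 (lmFit and eBayes, two-sided) compared TGFBR3KD with control over all clusters, with Benjamini-Hochberg adjustment, a threshold of 0.05 and steps tested on simulated data. Named genes were TGFBR3, all members and, of each other list, those that passed or, where none did, the gene with the smallest p. "The methods' t-test" is the unpaired two-tailed test that the study's methods name for its data in general, here on the same values. For differential expression on these arrays the study names limma, so the t-test is not how it tested them. The members and lists were chosen with earlier results of these data known, so their counts are not independent evidence. Promoter windows and shares came from RefSeq (GRCh38.p14). Alternatives covered moderation, array weights, filters, scaling, the row of a gene, the replicate block, thresholds and each array left out.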

Additional observations from a re-analysis of the deposited data

How the results depend on the processing

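Of the values recomputed, 681 kept their direction and their side of the threshold, 31 lost the threshold, 27 gained it and 18 changed sign. Settings that changed only the moderation, the test, the block, the filter or the threshold left the fold change the same by construction. Direction could not change there, so the 681 is no measure of how firmly it held. Signs changed only with array weights, scaling or an array left out. Members passing the test numbered 3, and 0 after adjustment or 8 without it by the methods' t-test, 6 at an adjusted p under 0.1, and 0 to 3 with 1 array left out (0 without TβRIII-KD 2, 1 without control 1). Glycolytic enzymes numbered 1, and 2 with a trend, with array weights, among rows at or above the median signal, with quantile normalization repeated, with the mean of all rows of a gene and at an adjusted p under 0.1, where HK1 joined HK2. They numbered 0 after adjustment and 3 without it by the methods' t-test, and 0 to 2 with 1 array left out. Other hypoxia targets numbered 2, and 1 with robust moderation (SLC2A3 at 0.0503), 0 and 5 by the methods' t-test, 4 at an adjusted p under 0.1, and 0 to 2 with 1 array left out. Members past the fold limit numbered 3, with 0 by the methods' t-test after adjustment and 0 to 3 with 1 array left out. Of the 80 other pathway genes 2 passed, with 0 and 13 by the methods' t-test, 1 with quantile normalization repeated, 5 at an adjusted p under 0.1, 0 past the fold limit, and 0 to 5 with 1 array left out (0 without any 1 control or TβRIII-KD 2, 1 without TβRIII-KD 1, 5 without TβRIII-KD 3). TGFBR3 kept -0.79 but had an adjusted p of 0.198 by the methods' t-test, and ranged from -0.89 to -0.67 with 1 array left out, with adjusted p lost without control 1 (0.0770), control 2 (0.0554) or TβRIII-KD 2 (0.0625). Whether replicate numbers pair the samples is not known. Deviations of same-numbered arrays correlated at -0.060, 0.110 and 0.307, and those of differently numbered arrays at -0.387 to 0.337. Such correlations over all clusters cannot decide it. With the number as a block in limma, 4 members passed, ANGPTL4 among them (adjusted p = 0.0323), and 7 of the other pathway genes did. The adjusted p in that fit was 0.0030 for SLC2A3, 0.0025 for HK2 and 0.0625 for HK1. For ENO2 the SE went from 0.29 to 0.10.

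Log2 fold changes near 0 changed sign. With 1 array left out the ranges were -0.0811 to 0.0021 for PFKL, -0.203 to 0.0801 for PFKP, -0.0455 to 0.0369 for ALDOA, -0.0281 to 0.0262 for GAPDH, -0.0243 to 0.0380 for ENO1, -0.42 to 0.17 for ENO2, -0.0704 to 0.0204 for EGLN1 and -0.0324 to 0.0126 for BNIP3L. With quantile normalization repeated, ALDOA was 0.0266 and BNIP3L 0.0460, and GAPDH was -0.0066 with array weights and -0.0004 with centred arrays. The cause was not tested. Counting identical rows once and a promoter window of 300 bases (ACGTG in 14 of 31 members) were added after the data were seen. Differences within the intervals given could not be resolved with 3 arrays a group.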
